A study of Mus musculus with 8 samples.

Results

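The genes described here make, break down and sense prostaglandins in mouse skin. They are 10 genes: the cyclooxygenases Ptgs1 and Ptgs2, the synthases Ptges, Ptgds and Ptgis, the degrading enzyme Hpgd, and the receptors Ptger2, Ptger3, Ptger4 and Ptgfr. They were chosen by symbol from this pathway, with earlier results of these data known. A probe belonged to a gene when its accession mapped to that symbol. All 10 were present on the array, with 13 of the 26762 probes that could be named, among 20284 named genes. The study profiled RNA from whole skin with 8 oligonucleotide arrays of 1 colour each, 4 of skin labelled Control and 4 of skin labelled DTG. According to its title, the series concerns Musashi1 overexpression in the skin of mice; Musashi1 binds RNA and is the product of Msi1. All samples are labelled male. The meaning of DTG, the promoter of any transgene, the strain, the age and any treatment are not given in the sources used here. Nothing in the labels says that the 4 skins of a group came from separate animals. The sample titles carry a different number each, whose meaning is not given. Xist exceeded the Y-linked gene Eif2s3y on 2 Control and 3 DTG arrays and not on the others. By these genes, neither group came from 1 animal alone. The p-values speak of the spread among these 8 samples, part of which could be technical.

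Prostaglandins are short-lived lipid signals made from arachidonic acid, which phospholipases A2 release from membranes. A cyclooxygenase converts it to prostaglandin H2, and a terminal synthase then makes prostaglandin E2, D2, F2 alpha or prostacyclin, each read by its own G protein-coupled receptors at the cell surface. In skin these lipids are known for their part in inflammation, wound repair, blood flow and hair growth, and uptake followed by oxidation by the Hpgd enzyme ends the signal.

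The promoters of Ptgs2, Ptges and Ptgds are shown because Ptgs2 rose, Ptges differed between its probes and Ptgds fell in the results that follow. They are the 250 bases before the RefSeq gene start (build GRCm38.p6), 5′ to 3′ on the gene's strand, with motif matches in capitals. Ptgs2 lies at chr1:150099781-150100030 on the plus strand. Ptges lies at chr2:30903298-30903547 and Ptgds at chr2:25469750-25469999, both on the minus strand.
Ptgs2: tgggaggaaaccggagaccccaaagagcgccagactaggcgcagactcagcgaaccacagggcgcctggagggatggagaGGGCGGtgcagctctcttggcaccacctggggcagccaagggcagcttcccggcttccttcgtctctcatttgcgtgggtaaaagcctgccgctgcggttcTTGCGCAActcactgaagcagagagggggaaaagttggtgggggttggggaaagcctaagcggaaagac
Ptges: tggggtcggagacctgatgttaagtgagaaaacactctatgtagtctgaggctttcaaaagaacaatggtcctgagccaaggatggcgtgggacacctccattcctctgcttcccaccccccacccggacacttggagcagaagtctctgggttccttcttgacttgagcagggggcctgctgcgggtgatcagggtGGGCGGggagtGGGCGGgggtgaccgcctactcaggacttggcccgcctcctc
Ptgds: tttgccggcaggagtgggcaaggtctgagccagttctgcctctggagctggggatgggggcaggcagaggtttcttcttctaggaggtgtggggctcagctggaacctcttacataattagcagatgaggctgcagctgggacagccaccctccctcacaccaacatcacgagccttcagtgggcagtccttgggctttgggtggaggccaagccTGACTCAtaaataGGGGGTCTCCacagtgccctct
One further site of Ptgs2 is shown because it lies just after the annotated start, at chr1:150100034-150100063 on the plus strand. Its capitals mark a cyclic AMP response motif and an E box, which share 2 bases.
Ptgs2 site: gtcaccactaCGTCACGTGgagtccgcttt

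Windows of 300 bases, 250 before and 50 after the start, were searched on both strands in the 9 members with an entry and in all 32851 windows of the table. The cyclic AMP response motif, CGTCA, was in 1 of the 9 members and in 20.8% of all windows. The E box, CACGTG, was in 1 member and 7.15% of windows, and Ptgs2 was the member with both. A C/EBP motif, TTGCNNAA, was in 2 members, Ptgs2 and Ptger2, and in 10.8% of windows. An Sp1 motif, GGGCGG, was in 6 members and 35.7% of windows. Ptgds held an AP-1 motif, TGANTCA (7.81% of windows), and the NF-kappaB motif (8.46% of windows), each in 1 member. The TATA box, TATAAA, was found in 1 member, Hpgd, where it began 5 bases after the start, and in 13.6% of windows. A window was counted once per motif, and of the Sp1 matches a pair in Ptger4 shared 1 base. A match is a description of the letters and not a measured binding site.

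Levels are given as log2 signal after the 75th percentile of the array was subtracted. Changes are DTG minus Control on that log2 scale, and SE is their standard error. A gene was called at a limma adjusted p (Benjamini-Hochberg over 17737 tested genes) under 0.05. Of the 2 Msi1 probes, 1 was higher in DTG. The Control mean of that probe was -2.80 ± 2.11 (SD, n = 4), and the DTG mean was 4.01 ± 0.16 (SD, n = 3), since an outlier flag removed DTG 1; the change was 6.81 (SE 1.02, limma adjusted p = 0.0029). The other Msi1 probe read -3.11 in Control and -3.13 in DTG. On the Control arrays 79.5 to 85.1% of spots were well above background, and on the DTG arrays 68.8 to 71.6% (exact two-sided permutation p = 0.0286, adjusted over 4 array measures 0.0381). Negative-control spots were brighter on the DTG arrays, at a mean log2 signal of 4.27 to 4.69 against 2.40 to 3.29 (the same p values). All arrays lay on 1 slide, with Control in one row and DTG in the other, so the row cannot be told apart from the group. Xist exceeded the Y-linked gene Eif2s3y on 2 Control and 3 DTG arrays, against the male label.

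Ptgs2, the inducible cyclooxygenase, rose 6.32-fold in DTG skin. Of the other members, 4 were called lower: Ptgds, Ptgis, Hpgd and Ptger3, by 1.67-fold to 2.05-fold. The remaining 5, Ptgs1, Ptges, Ptger2, Ptger4 and Ptgfr, did not pass on the probe that stood for the gene. So 1 of 10 members was called higher, where 11.1% of all tested genes were, and 4 of 10 were called lower, where 21.3% were. The groups did not overlap in 1 member above Control and 3 members below it, against 11.4% and 23.2% of all tested genes (34.6% in either direction). All 10 members passed the filter on dim probes, and every member probe in the fit was well above background on all 8 arrays. The median change of the members was -0.21, beside -0.15 over all tested genes.

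**Figure D1:**
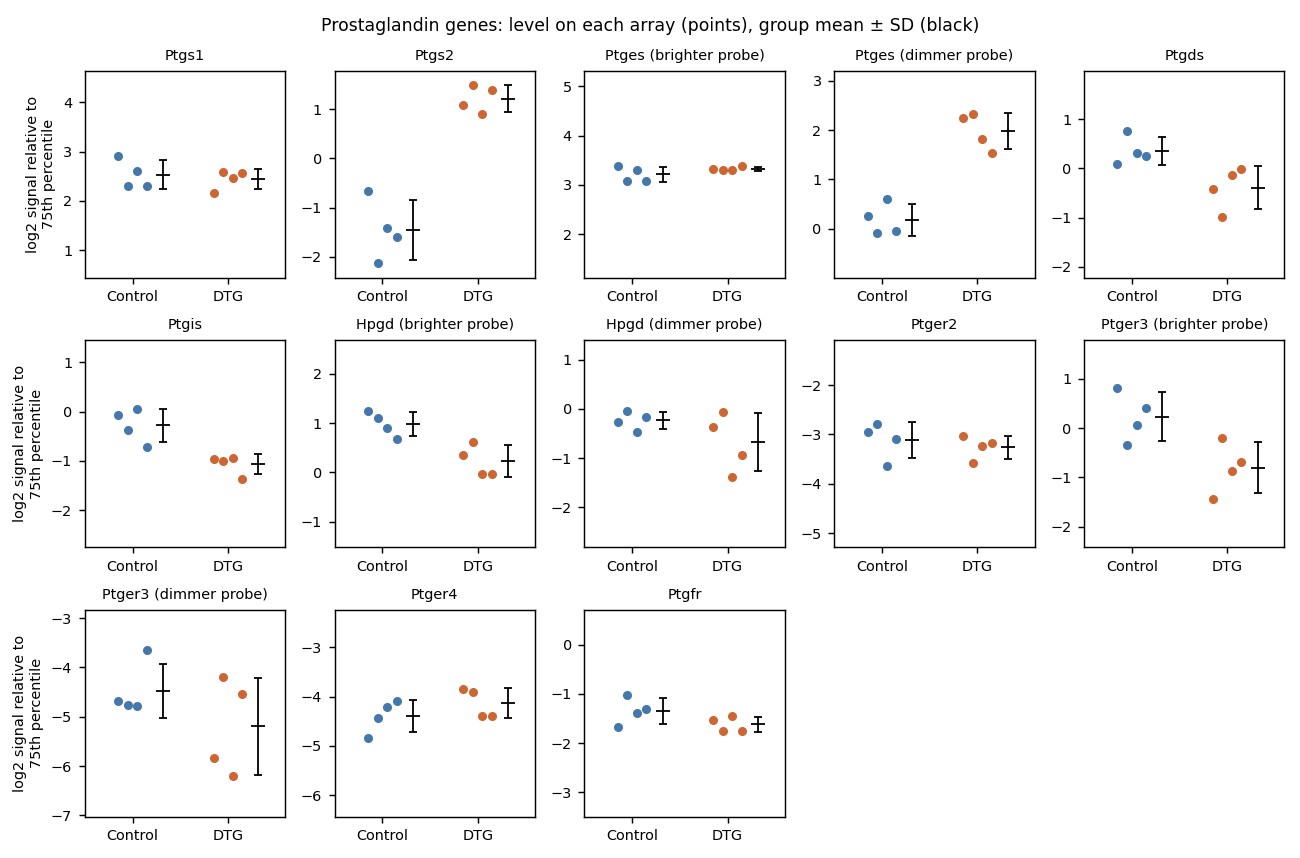
Level of each probe of the 10 genes on each array, as log2 signal (y axis, 75th percentile of the array subtracted; panels share a height but are centred on their own gene), in Control (blue) and DTG (orange) skin, with the group mean ± SD in black (n = 4). The groups are farthest apart for Ptgs2 (-1.45 against 1.21) and for the dimmer Ptges probe (0.18 against 1.98), while the brighter Ptges probe reads 3.21 and 3.32.

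Cyclooxygenases carry out the first committed step. Ptgs2 is known to be induced by growth factors, cytokines and wounding, whereas Ptgs1 is made constitutively in many tissues. Ptgs2 read -0.66, -2.13, -1.40 and -1.61 on Control 1 to 4 and 1.08, 1.49, 0.90 and 1.38 on DTG 1 to 4. The DTG arrays all lay above the Control arrays, and Control 1 was the highest of its group. The change was 2.66 (SE 0.29, limma adjusted p = 0.00050), with a 95% interval of 2.01 to 3.32. A larger rise was seen in 82 of the 17737 tested genes. Ptgs2 kept its call under all 22 alternative settings, with changes of 2.43 to 3.13.

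The Ptgs2 probe was printed at 10 places on each array, which gives the spread between spots of 1 array; it does not hold the labelling, hybridisation and scanning differences between arrays. The SD over the spots of 1 array was 0.03 to 0.11, while the SD between arrays was 0.61 in Control and 0.27 in DTG. The change computed from each place alone ranged from 2.62 to 2.73, and 1 of the 80 spots carried an outlier flag and was not used.

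**Figure D2:**
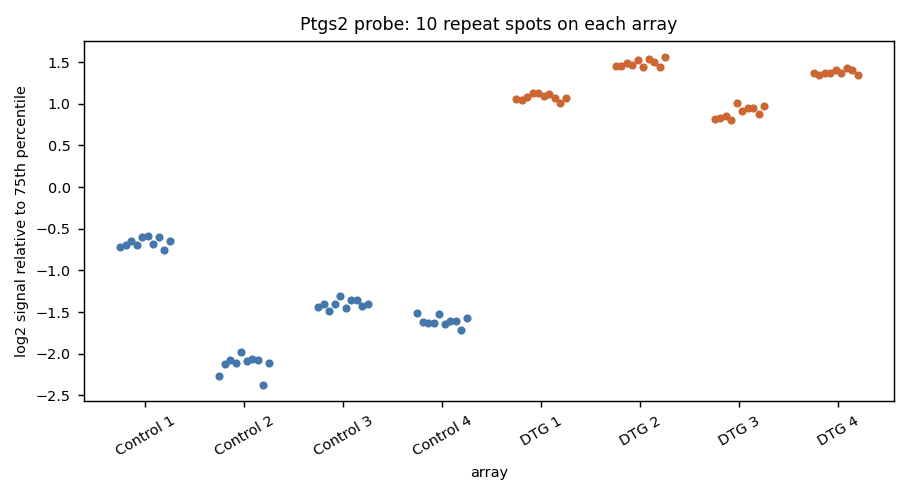
Signal of each of the 10 repeat spots of the Ptgs2 probe (y axis, log2, 75th percentile of the array subtracted) on each of the 8 arrays (x axis), Control in blue and DTG in orange. Spots of 1 array stay together (SD 0.03 to 0.11), and Control 1 (-0.66) and Control 2 (-2.13) differ by more than that.

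Ptgs1 showed no such difference. It read 2.92, 2.30, 2.61 and 2.30 in Control and 2.16, 2.59, 2.45 and 2.57 in DTG, with overlapping groups. The change was -0.09 (SE 0.17, limma adjusted p = 0.70), with a 95% interval of -0.46 to 0.29, and it read 0.036 without scaling and 0.38 on the spike-in scale. The 2 cyclooxygenase intervals, 2.01 to 3.32 and -0.46 to 0.29, did not overlap.

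Ptges encodes the inducible microsomal synthase that turns prostaglandin H2 into prostaglandin E2, and its 2 probes, which carry the same accession, disagreed. The brighter probe, which stood for the gene, read 3.37, 3.08, 3.31 and 3.09 in Control and 3.32, 3.29, 3.29 and 3.37 in DTG. Its groups overlapped, and the change of 0.11 (SE 0.10, limma adjusted p = 0.42) did not pass. The dimmer probe read 0.25, -0.09, 0.61 and -0.05 in Control and 2.24, 2.33, 1.83 and 1.53 in DTG. The groups were apart on it, with DTG higher, and the difference in means was 1.80, or 3.49-fold. The exact two-sided permutation p was 0.0286, the smallest that 4 arrays against 4 allow, and 0.0857 after adjustment over the 3 second probes of members. Neither probe was saturated on any array. With the dimmest probe of every gene in the fit, an alternative chosen after seeing the data, Ptges rose by 1.80 (SE 0.22, limma adjusted p = 0.00095), and with probes averaged by 0.96 (limma adjusted p = 0.0020). The places of the probes on the transcript were not analysed here.

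The other synthases of the group were lower in DTG skin. Ptgds encodes the lipocalin-type prostaglandin D synthase, known in hair follicle biology, and Ptgis encodes prostacyclin synthase of blood vessel walls and fibroblasts. Ptgis read -0.07, -0.38, 0.04 and -0.72 in Control and -0.96, -1.005, -0.93 and -1.36 in DTG. The groups did not overlap, with DTG 4 the lowest array, and Ptgis fell by 0.78 (SE 0.18, limma adjusted p = 0.013). Ptgds read 0.09, 0.75, 0.30 and 0.24 in Control and -0.42, -0.99, -0.14 and -0.02 in DTG. Its groups did not overlap, though Control 1 and DTG 4 lay close together. Ptgds fell by 0.74 (SE 0.23, limma adjusted p = 0.038). That call was lost on leaving out Control 2, Control 3, Control 4, DTG 1 or DTG 2, where the adjusted p was 0.083, 0.071, 0.059, 0.075 and 0.065, and with slide column as a block, which sets 1 Control beside 1 DTG array (0.098). In whole skin, fewer cells of a type and less RNA per cell cannot be told apart.

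Hpgd, whose enzyme oxidises prostaglandins at carbon 15 and so inactivates them, fell on its brighter probe. It read 1.25, 1.105, 0.90 and 0.68 in Control and 0.36, 0.62, -0.03 and -0.03 in DTG. The lowest Control array lay just above the highest DTG array, DTG 2. The decrease was 0.75 (SE 0.18, limma adjusted p = 0.016). The dimmer Hpgd probe read -0.26, -0.04, -0.47 and -0.17 in Control and -0.36, -0.05, -1.37 and -0.93 in DTG. There DTG 3 and 4 were low while DTG 1 and 2 lay within the Control range, and the difference of -0.44 did not pass (exact two-sided permutation p = 0.257, adjusted 0.286). With probes averaged the Hpgd change was -0.60 (limma adjusted p = 0.061).

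Among the receptors 1 of 4 was called, where 32.4% of all tested genes were. Ptger2, Ptger3 and Ptger4 encode the prostaglandin E2 receptors EP2, EP3 and EP4, of which EP2 and EP4 raise cyclic AMP and EP3 mainly lowers it. Ptger3 read 0.81, -0.34, 0.07 and 0.40 in Control and -1.45, -0.20, -0.87 and -0.68 in DTG on its brighter probe. DTG 2 lay above Control 2, so the groups overlapped. Ptger3 fell by 1.03 (SE 0.31, limma adjusted p = 0.033). The Ptger3 call was lost on leaving out Control 1, Control 3, Control 4, DTG 1, DTG 3 or DTG 4, where the adjusted p was 0.070, 0.055, 0.069, 0.068, 0.065 and 0.057, and with slide column as a block (0.099). The second Ptger3 probe was dim, well above background on 4 Control and 2 DTG arrays. It read -4.68, -4.76, -4.79 and -3.66 in Control and -5.84, -4.19, -6.20 and -4.54 in DTG, a difference of -0.72 (exact two-sided permutation p = 0.286).

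Ptger4 read -4.84, -4.44, -4.22 and -4.08 in Control and -3.84, -3.90, -4.39 and -4.39 in DTG. DTG 1 and 2 lay above the Control range and DTG 3 and 4 within it. The change was 0.26 (SE 0.20, limma adjusted p = 0.34), with a 95% interval of -0.19 to 0.72. Ptger2 read -2.95, -2.78, -3.63 and -3.09 in Control and -3.03, -3.58, -3.24 and -3.18 in DTG, with overlap. Its change was -0.15 (SE 0.20, limma adjusted p = 0.59) with a 95% interval of -0.59 to 0.30, and 0.32 on the spike-in scale. Ptgfr encodes the receptor for prostaglandin F2 alpha. It read -1.68, -1.02, -1.38 and -1.31 in Control and -1.54, -1.75, -1.45 and -1.74 in DTG, with Control 1 inside the DTG range. The change was -0.27 (SE 0.15, limma adjusted p = 0.19), with a 95% interval of -0.61 to 0.07, and 0.20 on the spike-in scale. These intervals leave room for changes of the sizes at their ends.

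The scale of comparison bears on the lower genes. Over all tested genes the median change was -0.15 on the scale used and 0.32 when the arrays were set on their spike-in spots. On the spike-in scale 5992 genes were called higher and 487 lower, beside 1977 and 3778. Relative to the median of all genes on the scale used, Ptgs2 stood at 2.81, Ptgds at -0.59, Hpgd at -0.61, Ptgis at -0.64 and Ptger3 at -0.89. On the spike-in scale itself Ptgis read -0.32 (limma adjusted p = 0.092), Hpgd -0.29 (0.20), Ptgds -0.27 (0.43) and Ptger3 -0.57 (0.18). They stayed below 0, and none was called there. Ptges on its brighter probe was called higher on that scale, at 0.58 (limma adjusted p = 0.0052), and with quantile scaling, at 0.24 (0.027).

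**Figure D3:**
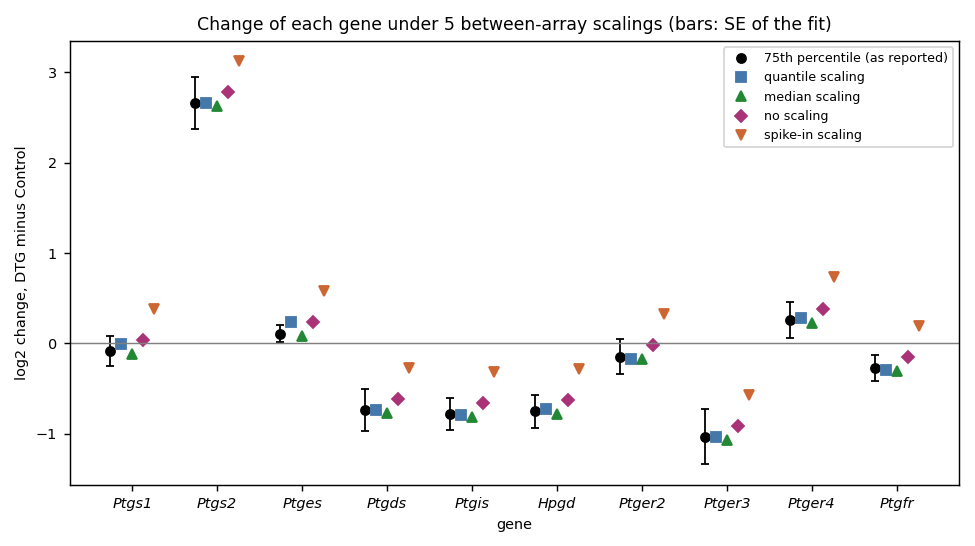
Change of each gene (y axis, log2, DTG minus Control) under 5 ways of scaling the arrays, with the SE of the fit drawn for the scale reported here (black circles). The spike-in scale (orange) lies above the others for every gene, and Ptgs2 stays between 2.63 and 3.13.

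The other genes of the pathway were read from 6 lists of 79 gene symbols, of which 76 were tested. The lists were chosen with earlier results of these data known. In all 15 were called higher and 14 lower, or 38.2% of those tested, beside 32.4% of all tested genes. Among the genes listed as phospholipases A2, 4 of 18 were called higher, 3 lower and 11 did not pass (median -0.02). Of the 3 called lower, Pla2g12b and Pla2g4c were well above background on 0 DTG arrays and passed the filter through Control alone, so the count in that direction rests on them. Pla2g4e, a cytosolic enzyme, rose by 1.48 (SE 0.26, limma adjusted p = 0.0042). It read 0.62, 0.10, 0.79 and -0.26 in Control and 2.08, 2.13, 1.43 and 1.55 in DTG, without overlap. Pla2g2f, a secreted enzyme of the upper epidermis, rose by 0.83 (SE 0.18). Pla2g3, another secreted enzyme, fell by 1.84 (SE 0.18, limma adjusted p = 0.00033), and its other probe read -0.68 with overlapping groups. Pla2g12b read -5.86 in Control and -6.53 in DTG (limma adjusted p = 0.0089), and Pla2g4c read -6.56 and -7.41. The Pla2g12b call was lost with quantile scaling (limma adjusted p = 0.10), spike-in scaling (0.42) and normexp background correction (0.30). Pla2g4a, the cytosolic phospholipase most often linked to cyclooxygenases, read -0.06 (limma adjusted p = 0.59).

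Among 7 other prostanoid synthases 1 rose, 2 fell and 4 did not pass (median -0.05). Hpgds, the haematopoietic prostaglandin D synthase of mast cells and other immune cells, rose by 0.71 (SE 0.23, limma adjusted p = 0.043). It read -1.31, -1.11, -1.21 and -0.58 in Control and -0.16, -0.01, -0.91 and -0.30 in DTG, with overlap at Control 4 and DTG 3. The Hpgds call was lost under 8 of 22 settings: with slide column as a block (adjusted p = 0.056), with sex class as a covariate (0.060), and without Control 1, 2 or 3 or DTG 1, 2 or 4 (0.082 to 0.105). Prxl2b, a prostaglandin F synthase, fell by 0.59 (SE 0.11) and Ptges2, a second prostaglandin E synthase, by 0.42 (SE 0.12). Akr1b3, an aldose reductase with prostaglandin F synthase activity, read 0.11 (limma adjusted p = 0.39), and 0.58 on the spike-in scale, where it was called higher (0.0084). The second Akr1b3 probe read 0.86 with overlapping groups (exact two-sided permutation p = 0.114). On the spike-in scale Ptges2 read 0.046 and Prxl2b -0.12, and neither was called (limma adjusted p = 0.86 and 0.40). The groups of Ptges2 overlapped, and its call was also lost without scaling (limma adjusted p = 0.23), with slide column as a block (0.054), and without Control 2, 3 or 4 or DTG 1, 2 or 3 (0.055 to 0.071).

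Of 10 transport and further breakdown genes, 1 rose, 4 fell and 5 did not pass (median -0.13). Slco4a1, an organic anion transporter, rose by 2.07 (SE 0.17, limma adjusted p = 0.00018). It read -1.87, -2.57, -2.23 and -2.34 in Control and 0.00, -0.06, -0.16 and -0.52 in DTG, without overlap. The reductases Cbr3, Zadh2 and Ptgr1 fell by 0.65 (SE 0.13), 0.38 (SE 0.08) and 0.28 (SE 0.09). On the spike-in scale Zadh2 read 0.090 and Ptgr1 0.19, so the direction of these small changes turned there. Cbr3 read -0.19 on that scale and was not called (limma adjusted p = 0.35). The Zadh2 call was also lost without scaling (limma adjusted p = 0.15). The Ptgr1 call was also lost with quantile scaling (limma adjusted p = 0.068), without scaling (0.27), with slide column as a block (0.075), with sex class as a covariate (0.059), and on leaving out any 1 array other than DTG 1 (0.051 to 0.095).

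The receptors outside the 10 members included larger changes than those within. Of 8 other receptors and partners, 2 rose, 2 fell and 4 did not pass (median 0.00). Ptgdr, the DP1 receptor for prostaglandin D2, fell by 1.89 (SE 0.25, limma adjusted p = 0.0012). It read -1.63, -1.18, -1.41 and -0.94 in Control and -3.83, -3.21, -2.80 and -2.86 in DTG, without overlap. Ptgir, the prostacyclin receptor, rose by 1.32 (SE 0.24, limma adjusted p = 0.0050). It read -2.31, -1.69, -2.61 and -1.74 in Control and -0.48, -1.20, -0.54 and -0.85 in DTG. The prostacyclin pair, synthase gene Ptgis and receptor gene Ptgir, was thus called in opposite directions. Ppard, a nuclear receptor for fatty acids, rose by 0.88 (SE 0.21), and Tbxa2r, the thromboxane receptor, fell by 0.65 (SE 0.21, limma adjusted p = 0.045). The Tbxa2r groups overlapped, and the call was lost under 11 of 22 settings. These were no scaling (adjusted p = 0.19), spike-in scaling (0.64), the authors' value table (0.057), flagged spots kept (0.051), slide column as a block (0.071), and leaving out Control 2, 3 or 4 or DTG 1, 2 or 4 (0.062 to 0.109).

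**Figure D4:**
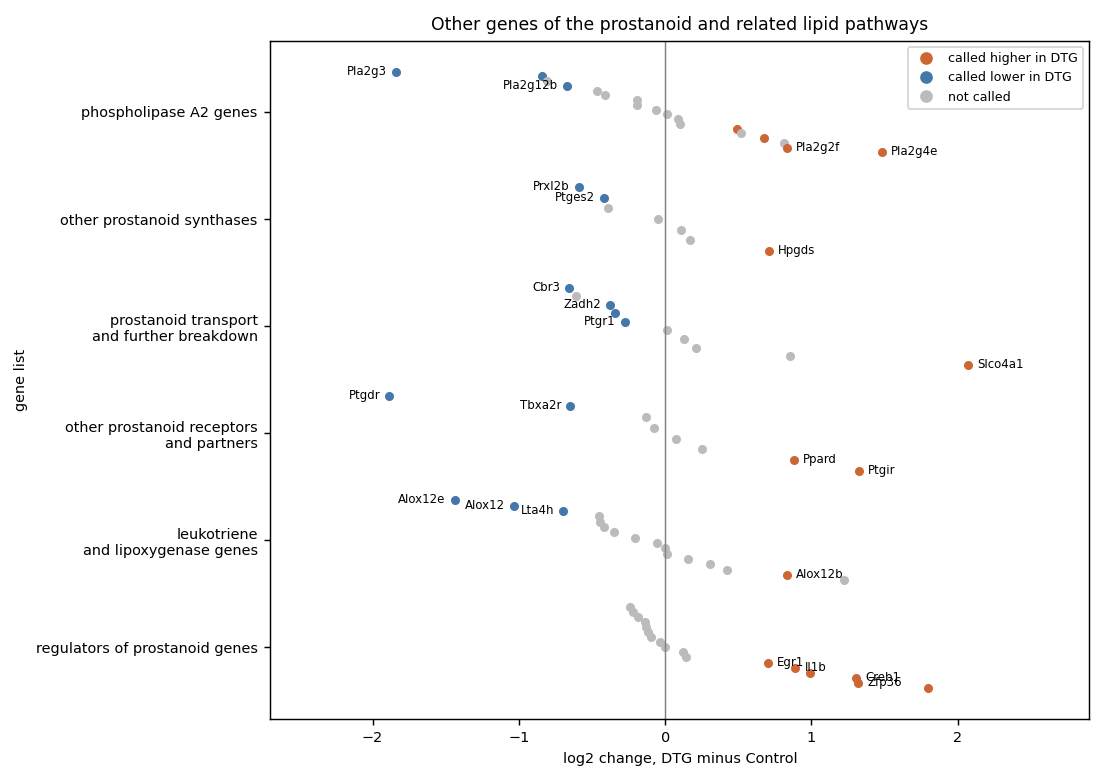
Change (x axis, log2, DTG minus Control) of each tested gene in 6 lists outside the 10 members (y axis), coloured by call: higher (orange), lower (blue) or not called (grey). Slco4a1 (2.07) lies farthest to the right and Ptgdr (-1.89) farthest to the left.

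Of 16 leukotriene and lipoxygenase genes, a list that holds enzymes and receptors, 1 rose, 3 fell and 12 did not pass (median -0.13). Alox12e, an epidermal lipoxygenase, fell by 1.44 (SE 0.23), Alox12 by 1.04 (SE 0.14) and Lta4h, the leukotriene A4 hydrolase, by 0.70 (SE 0.10). On the spike-in scale Lta4h read -0.23 and was not called (limma adjusted p = 0.13). The second Alox12 probe, well above background on 2 DTG arrays, read -0.77 with overlapping groups (exact two-sided permutation p = 0.171), and the call was lost with the dimmest probes (limma adjusted p = 0.12). Alox12b, whose product is needed for the skin barrier, rose by 0.83 (SE 0.20), and by 2.26 on its dimmer probe. Of 17 regulators of prostanoid genes, 6 were called higher, 0 lower and 11 did not pass (median 0.00), where 11.1% of all tested genes were called higher. As this list was chosen with earlier results of these data known, the count only describes these genes. The 6 include Creb1, whose probes disagree, and with averaged probes 5 of the list were called. Il1b, the cytokine interleukin 1 beta, rose by 0.89 (SE 0.18), the transcription factor gene Egr1 by 0.70 (SE 0.17) and Zfp36, whose protein destabilises AU-rich mRNAs, by 1.32 (SE 0.14). Creb1, a factor that binds cyclic AMP response sites, read 1.30 (SE 0.09) on its brighter probe, -0.90 on its dimmer probe and 0.20 with probes averaged (limma adjusted p = 0.16), so no direction holds for that gene.

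Whole skin holds many cell types, and their markers were read beside these results. Of all tested genes, 11.1% were called higher and 21.3% lower, and for 23.2% the DTG arrays lay below Control without overlap. The marker counts below stand beside those shares, and they count called genes, not cells. Of the keratinocyte, fibroblast and skeletal muscle markers, 24 genes in all, 23 were well above background on all 8 arrays. The other, Krt15, was counted so on 4 Control and 3 DTG arrays. An outlier-flagged spot was counted as not above background, and Krt15 was bright (mean level 4.34 in Control and 3.96 in DTG). Of 10 keratinocyte markers 3 rose and 5 fell, with mean levels of 3.14 to 3.59 in Control and 3.06 to 3.33 in DTG. Of 9 neutrophil markers 1 rose and 1 fell, and their mean level was -0.54 to -0.08 in Control and -0.34 to 0.72 in DTG, with overlap. The marker that fell, Elane, was dim, at -4.67 in Control and -5.23 in DTG. It was well above background on 4 Control and 2 DTG arrays and passed the filter through Control alone. Ly6g, a defining neutrophil marker, was not tested here. Of 7 macrophage and monocyte markers 1 rose and 0 fell, with mean levels of 1.71 to 2.65 in Control and 1.80 to 2.45 in DTG. Of 8 mast cell markers 0 were called, with mean levels of -0.52 to -0.14 and -0.57 to -0.02. Mean levels lay lower in DTG without overlap for the T cell markers (4 of 6 fell, 0.94 to 1.06 against 0.26 to 0.68) and the melanocyte markers (2 of 5 fell, -0.50 to -0.04 against -1.07 to -0.63). The same held for the Schwann cell markers (3 of 5 fell, -0.43 to -0.26 against -0.91 to -0.73) and the skeletal muscle markers (2 of 6 fell, 4.25 to 4.36 against 3.95 to 4.11). Fibroblast markers fell in 3 of 8, adipocyte markers in 4 of 6 and endothelial markers in 2 of 7, with overlapping means. Of 6 smooth muscle and pericyte markers 0 were called, and of 3 platelet markers 1 rose. The part of these cell types in the changes of Ptgds, Ptgis, Ptgdr and the other genes was not tested.

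The genes whose level across the 8 arrays was most like that of Ptgs2, among 16453 named genes, were Psme4 (r = 0.995), Fosl1 (r = 0.993), Tmem68 (r = 0.991), Nup54 (r = 0.991) and Socs4 (r = 0.991). Their changes were 1.36, 2.41, 0.98, 0.70 and 1.43, a direction fixed by choosing them for likeness to Ptgs2. After each group's mean was subtracted, the closest were Pdzd8 (r = 0.992), Trmt13 (r = 0.988), Psme4 (r = 0.985), Ap1s3 (r = 0.981) and Elf5 (r = 0.980), so Psme4 was named by both measures. Of the members, by the second measure, r with Ptgs2 was 0.84 for Ptgs1, 0.81 for Ptges, 0.78 for Ptger3 and 0.37 for Hpgd. It was 0.28 for Ptgis, -0.27 for Ptger2, -0.33 for Ptger4, -0.62 for Ptgds and -0.99 for Ptgfr. Ptgs2 varied more among Control arrays (SD 0.61) than among DTG arrays (SD 0.27), so the Control arrays weigh more in these values. All arrays of a group share a slide row, and the values are descriptions over 8 arrays.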

How the data were processed

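Whole-skin RNA was hybridised on 1-colour (Cy3) arrays. The deposited scanner tables give intensity per spot on a linear scale, already corrected for background by the scanner software, Agilent Feature Extraction. Its version is 11.5.1.1 in the file headers, whereas the submitters' processing notes list 10.7. Their build, per the file headers, is mm9; probe coordinates were not used. The same deposited tables flag outlier spots and mark spots well above background. The authors' deposited value table, also intensity, served as an alternative.

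Groups came from the tissue label, and replicates were numbered in deposit order, which pairs no samples. Signals were put on the log2 scale, outlier-flagged spots were left out, spots of a probe were averaged, and each array's 75th percentile was subtracted. A probe entered the fit when 3 or 4 arrays of either group were well above background, and the brightest kept probe stood for the gene. Gene names came from unversioned accessions through a RefSeq table (GRCm38.p6). The 8 arrays were fitted in R 4.3.3 with limma 3.58.1 (lmFit, eBayes, two-sided). The script was tested on simulated data. Precision is limited by the number of arrays, with a median SE of 0.14 (log2) per gene.

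Named were all members, Msi1, up to 4 genes of smallest p per list, and the 5 genes most like Ptgs2 by each of 2 measures. Pla2g4a, Pla2g4c, Krt15 and Elane were named after their values were seen. The members and lists were chosen with earlier results of these data known. Alternatives were 4 other scalings, normexp (offset 50, on the median signal), the authors' table, flagged spots kept, 2 other filters, averaged or dimmest probes, an intensity trend, slide column as a block, sex class by Xist and Eif2s3y as a covariate, and each array left out.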

Additional observations from a re-analysis of the deposited data

Results flagged for a closer look

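In 76 groups of 4 arrays, 4 had 1 array standing apart from the other 3 by Dixon's criterion, which chance meets in about 1 in 20 groups. Ptgis in DTG skin read -1.36 on DTG 4, against -1.005 to -0.93 on the others, which places DTG 4 farther from Control. The dimmer Ptger3 probe read -3.66 on Control 4 against -4.79 to -4.68. Ptges2 read 0.019 on DTG 4 against -0.18 to -0.17, and Pla2g12b read -6.26 on Control 2 against -5.78 to -5.70.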

How the results depend on the processing

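The scaling of the arrays and the choice of probe moved the member counts most. Members called higher in DTG numbered 2, in place of 1, with quantile scaling, with spike-in scaling, with averaged probes and with the dimmest probes; Ptges was the added gene in each. Members called lower numbered 1 without scaling and 0 on the spike-in scale, and 2 with averaged probes, with the dimmest probes and with slide column as a block, in place of 4; leaving out 1 array gave 2 to 3. Ptgds and Ptger3 were the members lost under the block. Genes called lower over all tested numbered 1596 without scaling, 487 on the spike-in scale and 2488 (without Control 3) to 3382 with 1 array left out. Genes called higher numbered 5992 on the spike-in scale and 3158 with no filter on dim probes. Calls lower made up 65.6% of all calls on the scale used, 41.7% without scaling, 7.52% on the spike-in scale and 54.7% with no filter. In the lists, transport and breakdown genes called numbered 2 without scaling, 3 with the slide column as a block and 3 to 4 with 1 array left out. Other synthases numbered 1 with that block and 1 to 2 with 1 array left out. Leukotriene and lipoxygenase genes numbered 7 with sex class as a covariate, and regulators 11 on the spike-in scale. Ptgs1 turned to 0.036 without scaling, and ranged from -0.17 to 0.041 with 1 array left out. On the spike-in scale the direction turned for Ptgs1 (0.38), Ptger2 (0.32), Ptgfr (0.20), Ptges2 (0.046), Zadh2 (0.090) and Ptgr1 (0.19). Msi1 read -0.026 with probes above background on all 8 arrays and with the dimmest probes, which replace its probe, and Creb1 read -0.90 with the dimmest probes. Ptgis lost its call under 1 of 22 settings, Hpgd under 4, Ptgds under 8 and Ptger3 under 11. Where no cause is named, the cause was not tested. The lower share of DTG spots above background limits dim probes such as the second Ptger3 probe. No paired analysis was possible because the labels carry no replicate numbers; the slide column, in which 1 Control and 1 DTG array share a place, was used as a block instead.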
